A study of Homo sapiens with 6 samples.

Results

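The interferon response genes are 42 genes that human cells raise in answer to interferon or that carry the interferon signal into the nucleus. They were taken by name, and each was read on the probe set of highest mean among those annotated to that gene alone. Of the 42 genes, 41 had such a probe set, and 36 of these passed a filter on low values (a mean of at least 2.64 on the log2 scale, the 40th percentile of all probe set means). These 36 are compared below with all 14428 genes that passed the same filter. EPSTI1, IFI27, IFI44L, RSAD2 and TRIM22 lay below the filter, and STAT2 was not analysed here.

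The cells were A2058, an established human melanoma line, in 3 derivatives: TET2WT, which over-expresses TET2; TET2M, which over-expresses the form of TET2 labelled M or mutant; and Mock, the control. All 3 lines were kept for 7 days in DMEM holding either 4.5 g/L glucose (high) or 1 g/L (normal), and total RNA of each of the 6 combinations was read on 1 Affymetrix array. The labels do not give the change carried by TET2M, what the Mock line carries, the promoter driving TET2, or whether a line is a clone or a pool. No combination had a replicate culture. The spread behind each p-value comes from how far line differences varied between the 2 glucose concentrations and glucose differences among the 3 lines. It is pooled over all 6 arrays and drawn towards a spread common to all genes tested. No p-value rests on repeat cultures, and this limits the precision of every value.

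Type I interferons bind IFNAR1 and IFNAR2, and the Janus kinases TYK2 and JAK1 then phosphorylate STAT proteins, STAT2 among them, which join IRF9 in a complex called ISGF3. ISGF3 binds the interferon-stimulated response element (ISRE) in promoters, whereas the factors activated by interferon gamma bind gamma-activated sites (GAS). The genes induced in this way block viruses at entry, replication and release, tag proteins with the ubiquitin-like ISG15, and feed back on the pathway. In melanoma the same programme is known for raising antigen presentation and slowing growth. TET2 is a dioxygenase that oxidises 5-methylcytosine in DNA.

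The promoters of 4 members are printed because these genes had the largest differences between TET2WT and Mock among the members that passed the test, held at least 1 of the motifs and were in the promoter table. Each window runs from 250 bases before to 50 bases after an annotated start, 5′ to 3′ on the gene's strand, from RefSeq (GRCh38.p14). Capitals mark the ISRE core GAAANNGAA or the GAS motif TTCNNNGAA, each searched on both strands. The windows lie at chr11:313790-314089 on the plus strand for IFITM1, chr3:122564251-122564550 on the minus strand for PARP9, chr15:88638766-88639065 on the plus strand for ISG20 and chr17:43006534-43006833 on the plus strand for IFI35.
IFITM1: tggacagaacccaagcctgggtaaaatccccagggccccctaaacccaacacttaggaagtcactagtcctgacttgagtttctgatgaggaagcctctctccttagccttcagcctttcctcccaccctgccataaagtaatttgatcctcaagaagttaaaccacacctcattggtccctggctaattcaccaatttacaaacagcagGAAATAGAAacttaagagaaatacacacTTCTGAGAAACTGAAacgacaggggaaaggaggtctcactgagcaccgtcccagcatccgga
PARP9: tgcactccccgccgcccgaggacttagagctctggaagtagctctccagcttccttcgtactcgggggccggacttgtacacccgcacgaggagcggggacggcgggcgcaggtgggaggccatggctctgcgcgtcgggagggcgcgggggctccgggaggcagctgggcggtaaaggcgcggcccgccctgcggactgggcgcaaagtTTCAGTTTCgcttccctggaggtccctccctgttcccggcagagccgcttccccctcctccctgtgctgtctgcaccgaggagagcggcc
ISG20: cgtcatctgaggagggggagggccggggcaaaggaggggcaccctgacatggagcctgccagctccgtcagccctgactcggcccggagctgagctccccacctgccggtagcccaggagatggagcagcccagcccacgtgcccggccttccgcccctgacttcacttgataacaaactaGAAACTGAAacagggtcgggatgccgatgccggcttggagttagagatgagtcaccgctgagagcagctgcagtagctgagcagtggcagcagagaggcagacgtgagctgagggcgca
IFI35: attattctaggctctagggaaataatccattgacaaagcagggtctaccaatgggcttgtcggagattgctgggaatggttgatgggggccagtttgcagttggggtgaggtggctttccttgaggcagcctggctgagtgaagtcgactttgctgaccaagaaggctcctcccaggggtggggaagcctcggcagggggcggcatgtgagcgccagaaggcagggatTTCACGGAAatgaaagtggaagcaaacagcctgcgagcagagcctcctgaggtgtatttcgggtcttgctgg
The IFITM1 window held 2 ISRE cores, the second overlapping a GAS motif. In the PARP9 window the ISRE core lay on the opposite strand. ISG20 held 1 ISRE core, and IFI35 held a GAS motif and no match to the ISRE core.

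An ISRE core was common among the members. Of the 34 members found in the promoter table, 25 (73.5%) held it in at least 1 window, against 8.3% of the 11514 tested genes in the table and 9.9% of all 27305 genes there. Counted by window, 65.2% of the members' 46 windows and 8.1% of all 35116 windows held it. The GAS motif was found in 10 members (29.4%) and in 9.4% of all genes in the table. IRF7, IFIT2, IFITM2, MX2, OAS2, OASL, TRIM22 and USP18 were not in the table. A match is a description of the letters in these windows and not a binding site.

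Before the members, the lines were checked. Of 3 TET2 probe sets, the one of highest mean read 9.54 and 9.68 in TET2WT, 7.57 and 7.37 in TET2M and 3.81 and 4.13 in Mock; here and below, the first value of a pair is at 4.5 g/L and the second at 1 g/L glucose, on the log2 scale. TET2WT exceeded TET2M by 2.14 ± 0.14 (standard error, n = 2 arrays a line; limma adjusted p = 0.00187), so the form of TET2 and its level cannot be told apart between these lines. Another TET2 probe set ranked the lines alike, and the remaining probe set was flat, between 5.15 and 5.41 on all 6 arrays. Array medians lay between 2.96 and 3.03. The melanoma markers SOX10 (9.38 to 9.65), MIA (10.88 to 11.13) and S100B (7.20 to 7.90) were present on all 6 arrays. The pigment genes MLANA (2.16 to 2.32), TYR (2.37 to 2.64) and TYRP1 (2.20 to 2.31) were at or below the level of the filter. The pigment gene PMEL was above it on every array, with a lowest value of 3.55. MITF was lowest for TET2WT (6.4 and 6.3), beside 6.6 and 6.82 for TET2M and 6.96 and 6.93 for Mock. Of 11 measured melanoma and melanocyte markers, 8 had means above the level. Their list summed on the linear scale to 3780 to 3980 for TET2WT, 3950 to 4150 for TET2M and 3830 to 3860 for Mock. Of 12 measured blood cell markers, 7 had means above that level, and their list summed on the linear scale to 118 to 137 in TET2WT, 156 to 160 in Mock and 127 in TET2M. LYZ was the brightest of these 7, at 5.64 and 5.39 in TET2WT, 5.65 and 5.43 in TET2M and 6.35 and 6.21 in Mock, and CD3D (3.10 to 3.37), CD79A (3.31 to 3.85) and ITGAM (2.73 to 3.11) were also above the level. The pan-leukocyte marker PTPRC (1.98 to 2.22), CD14 (2.35 to 2.63), NKG7 (2.20 to 2.46) and CSF1R (2.17 to 2.40) were below it on all arrays. Of 4 markers of plasmacytoid dendritic cells, which make much type I interferon, TCF4 (6.36 to 6.61), IL3RA (3.03 to 3.53) and LILRA4 (3.18 to 3.39) were above the level and CLEC4C (1.96 to 2.18) was below it. Among 6 measured keratinocyte markers, 4 were above the level, and CDH1 (1.98 to 2.22) and EPCAM (1.95 to 2.30) were below it. KRT10 lay between 9.23 and 9.39, and KRT14 read 4.55 and 3.89 in TET2WT, 6.22 and 5.91 in TET2M and 6.86 and 6.38 in Mock. Among 6 fibroblast markers, 5 were above it, and LUM read 3.74 and 3.11 in TET2WT, 5.12 and 4.38 in TET2M and 4.63 and 4.34 in Mock. Summed on the linear scale, the keratinocyte list came to 703 to 708 in TET2WT, 681 to 740 in TET2M and 765 to 795 in Mock, and the fibroblast list to 71.2 to 81.7, 85.3 to 96.2 and 81.9 to 83.1. The endothelial list, with 4 of 5 markers above the level, came to 49.6 to 50.8 in TET2WT, 49.3 to 51.6 in TET2M and 46.8 to 50.1 in Mock. The part of these markers in the results below was not tested. The 3′ to 5′ difference of ACTB was 1.65 on the TET2M array at 1 g/L and 1.90 to 2.06 on the other 5 arrays.

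The first comparison asks how the interferon response genes differ between cells over-expressing TET2WT and control cells. In TET2WT, 13 of the 36 tested members were higher than in Mock and none was lower (limma, Benjamini-Hochberg adjusted p under 0.05 over 14428 genes). Over all genes tested, 2.01% were called higher and 2.2% lower. In cultures read in bulk, more cells carrying a transcript and more transcript per cell cannot be told apart. The genes that rose were IFITM1, PARP9, USP18, ISG20, IFI35, IFI6, CMPK2, MX1, ISG15, PARP14, UBE2L6, IFITM2 and IFIH1. Their rises ran from 0.51 to 1.73 on the log2 scale, or 1.42-fold to 3.31-fold. At an unadjusted p under 0.05, 19 members were higher and 1 was lower, against 8.78% and 11.4% of all genes. Among the 19 are OAS2 and XAF1, which passed the filter through TET2WT. Both also enter the median of the 36 members. The median difference over the 36 members was 0.43, beside -0.01 over all genes; with the 5 members below the filter included, the median over 41 was 0.295. The calls need all 6 arrays: with any 1 array left out the fit keeps 1 residual degree of freedom, and no member passed, while at most 16 of all genes tested did.

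**Figure D1:**
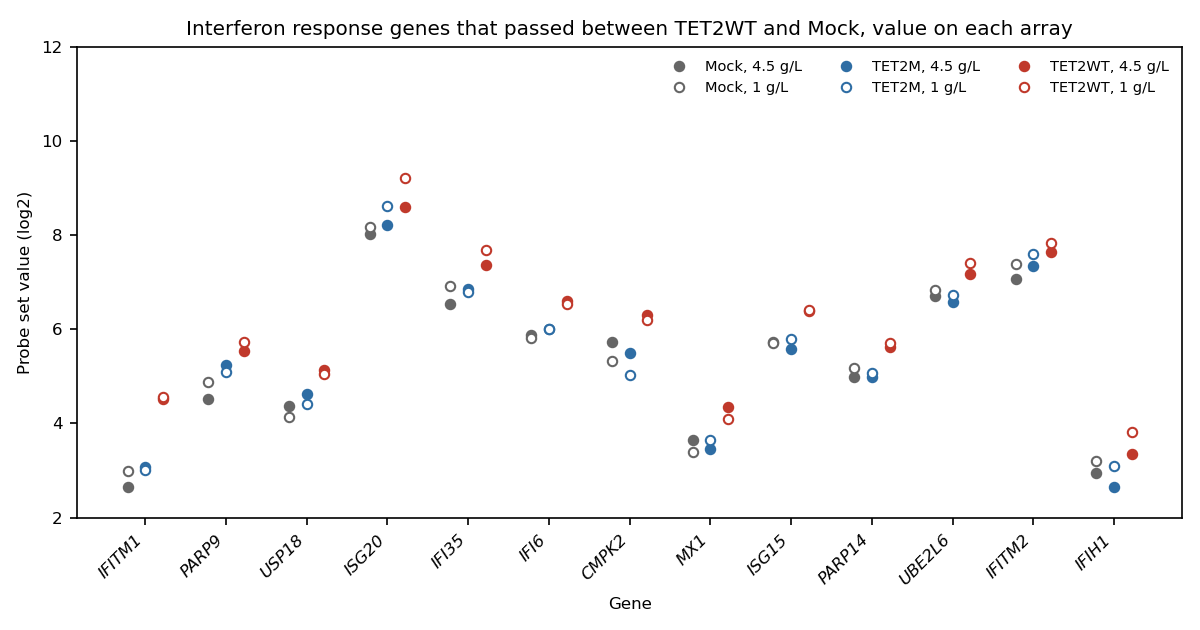
Values (log2, vertical axis) of the 13 interferon response genes that passed between TET2WT and Mock; each point is 1 array, filled at 4.5 g/L and open at 1 g/L glucose, with Mock in grey, TET2M in blue and TET2WT in red. For every one of these genes both TET2WT arrays lie above both Mock arrays, as for IFITM1 at 4.53 and 4.57 against 2.66 and 2.99.

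The IFITM proteins sit in membranes and stop enveloped viruses from fusing with the cell. IFITM1 read 4.53 and 4.57 in TET2WT, against 2.66 and 2.99 in Mock and 3.07 and 3.02 in TET2M. Both TET2WT arrays were above the other 4, with no overlap. It had the largest difference of the members, 1.73 ± 0.12 over Mock (3.31-fold, limma adjusted p = 0.00194), and the alternatives gave 1.56 to 1.89. IFITM2 read 7.65 and 7.83 in TET2WT, against 7.07 and 7.39 in Mock and 7.34 and 7.61 in TET2M, a rise of 0.51 ± 0.09 (limma adjusted p = 0.0400). IFITM3 read 10.04 and 10.20 in TET2WT, against 9.53 and 9.83 in Mock and 9.69 and 9.91 in TET2M; its difference of 0.44 ± 0.09 did not pass (limma adjusted p = 0.0571). All 3 genes lie together on chromosome 11 and are close copies of each other, and the probe sets of IFITM2 and IFITM3 are of the kind that can share probes among similar transcripts, so the share of each gene in these values is uncertain.

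The ISG15 system attaches the small protein ISG15 to other proteins. ISG15 read 6.38 and 6.41 in TET2WT, against 5.74 and 5.70 in Mock and 5.59 and 5.79 in TET2M, a rise over Mock of 0.68 ± 0.10 (1.60-fold, limma adjusted p = 0.0227). UBE2L6, the conjugating enzyme for ISG15, read 7.18 and 7.41, 6.71 and 6.83, and 6.58 and 6.72 in the same order of lines, a rise of 0.53 ± 0.09 (limma adjusted p = 0.0344). USP18, which removes ISG15 and restrains the interferon receptor, read 5.14 and 5.06, 4.38 and 4.13, and 4.62 and 4.41, a rise of 0.85 ± 0.09 (1.80-fold, limma adjusted p = 0.0101). In each of these 3 genes the TET2WT arrays were above all others. The ligases gave no call. HERC5, the main ligase for ISG15 in human cells, read 2.78 and 2.86 in TET2WT, against 2.96 and 3.25 in Mock and 2.77 and 2.53 in TET2M, a difference of -0.29 ± 0.14 that did not pass (limma adjusted p = 0.323). Its relative HERC6 differed by 0.03 ± 0.19 (limma adjusted p = 0.961).

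Among the antiviral effectors, 3 of 7 tested members rose and none fell, beside 2.01% and 2.2% of all genes. ISG20, an exonuclease that degrades RNA, read 8.61 and 9.21 in TET2WT, against 8.03 and 8.17 in Mock and 8.22 and 8.63 in TET2M, a rise over Mock of 0.81 ± 0.13 (1.75-fold, limma adjusted p = 0.0281). A second ISG20 probe set gave the same order, at 8.10 and 8.60, 7.48 and 7.61, and 7.74 and 7.98. CMPK2, a nucleotide kinase of mitochondria, read 6.30 and 6.19, 5.73 and 5.32, and 5.50 and 5.02, a rise of 0.72 ± 0.12 (1.65-fold, limma adjusted p = 0.0309). MX1, a dynamin-like GTPase that traps viral nucleocapsids, read 4.34 and 4.10, 3.64 and 3.39, and 3.45 and 3.65, a rise of 0.71 ± 0.14 (1.63-fold, limma adjusted p = 0.0489). The TET2WT arrays of CMPK2 and MX1 were above the other 4. BST2, or tetherin, which holds budding virions on the cell surface, read 3.82 and 3.80, 2.92 and 3.42, and 3.37 and 3.54; its difference of 0.64 ± 0.14 did not pass (limma adjusted p = 0.0652). MX2, which blocks nuclear entry of some viruses, differed by 0.16 ± 0.12, the translation-restricting SAMD9 by -0.13 ± 0.12 and its neighbour SAMD9L by 0.32 ± 0.17, and none of these 3 passed (limma adjusted p from 0.365 to 0.600).

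The PARP genes of this response add ADP-ribose to proteins, and DTX3L is the ubiquitin ligase that pairs with PARP9. PARP9 read 5.53 and 5.73 in TET2WT, against 4.52 and 4.89 in Mock and 5.25 and 5.09 in TET2M, a rise over Mock of 0.93 ± 0.14 (1.90-fold, limma adjusted p = 0.0244). A second, dimmer PARP9 probe set read 3.59 and 4.01, 3.59 and 3.82, and 3.40 and 3.73, with TET2WT and Mock overlapping, so its probe sets disagree. With the mean of the 2 probe sets the rise was 0.51, and it still passed. PARP14, which lies close by on chromosome 3, read 5.63 and 5.70, 4.99 and 5.18, and 4.98 and 5.07, a rise of 0.58 ± 0.09 (1.49-fold, limma adjusted p = 0.0262). DTX3L read 6.35 and 6.58, 6.12 and 6.23, and 6.19 and 6.22; the TET2WT arrays were above the others by a small margin, and the difference of 0.29 ± 0.09 did not pass (limma adjusted p = 0.168). PARP12 differed by 0.05 ± 0.10 (limma adjusted p = 0.842).

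Of the sensors, IFIH1 (MDA5), which detects long double-stranded RNA in the cytoplasm, read 3.35 and 3.81 in TET2WT, against 2.94 and 3.21 in Mock and 2.66 and 3.09 in TET2M. Its rise over Mock of 0.51 ± 0.10 passed (limma adjusted p = 0.0453), and this call was lost after quantile or cyclic loess normalization and without the filter on low values. IFI16, a sensor of DNA, stayed between 8.90 and 9.09 on all 6 arrays and differed by -0.09 ± 0.09 (limma adjusted p = 0.678). IFI35, the partner of the interferon-induced protein NMI, read 7.37 and 7.68 in TET2WT, against 6.54 and 6.93 in Mock and 6.86 and 6.80 in TET2M, a rise of 0.79 ± 0.13 (1.73-fold, limma adjusted p = 0.0319). IFI6, an endoplasmic reticulum and mitochondrial protein that inhibits flaviviruses, read 6.60 and 6.54, 5.88 and 5.81, and 6.00 and 6.00, a rise of 0.73 ± 0.09 (1.65-fold, limma adjusted p = 0.0129). For both genes the TET2WT arrays were above the other 4. XAF1, which antagonises the apoptosis inhibitor XIAP, read 2.95 and 3.11, 2.58 and 2.46, and 2.68 and 2.42; it differed by 0.51 ± 0.12 and did not pass (limma adjusted p = 0.0858). Both Mock arrays and the TET2M array at 1 g/L were below the level of 2.64, so XAF1 passed the filter through TET2WT. IFI44, a cytoplasmic antiviral protein, had the lowest difference of the members. It read 4.88 and 5.75 in TET2WT, against 6.08 and 5.88 in Mock and 5.76 and 5.73 in TET2M, a difference of -0.67 ± 0.25 that did not pass (limma adjusted p = 0.216). The low value was on the TET2WT array at 4.5 g/L.

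The OAS and IFIT families, which are among the most used markers of an interferon response, gave no call. The OAS enzymes sense double-stranded RNA and make oligoadenylate, and the IFIT proteins bind foreign RNA. OAS3 lay between 6.75 and 6.79 on all 6 arrays, the narrowest range of any tested member. OAS1 differed between TET2WT and Mock by -0.08 ± 0.15, OAS2 by 0.42 ± 0.14, OAS3 by -0.02 ± 0.09 and the OAS-like gene OASL by 0.01 ± 0.09 (limma adjusted p from 0.182 to 0.967). OAS2 was below the level of the filter on 3 arrays, both of Mock and the TET2M array at 1 g/L, so it passed the filter through TET2WT. IFIT1 read 3.92 and 3.89 in TET2WT, against 3.92 and 3.00 in Mock and 3.47 and 3.46 in TET2M, with the Mock array at 1 g/L the lowest. Its difference of 0.45 ± 0.23 did not pass (limma adjusted p = 0.348). IFIT2 differed by 0.10 ± 0.09, IFIT3 by 0.30 ± 0.17 and IFIT5 by -0.11 ± 0.10, none of which passed (limma adjusted p from 0.390 to 0.613). At an unadjusted p under 0.05, 1 of the 4 OAS members (OAS2) was higher and none of the 4 IFIT members differed. Of all genes, 8.78% were higher and 11.4% lower at that threshold.

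**Figure D2:**
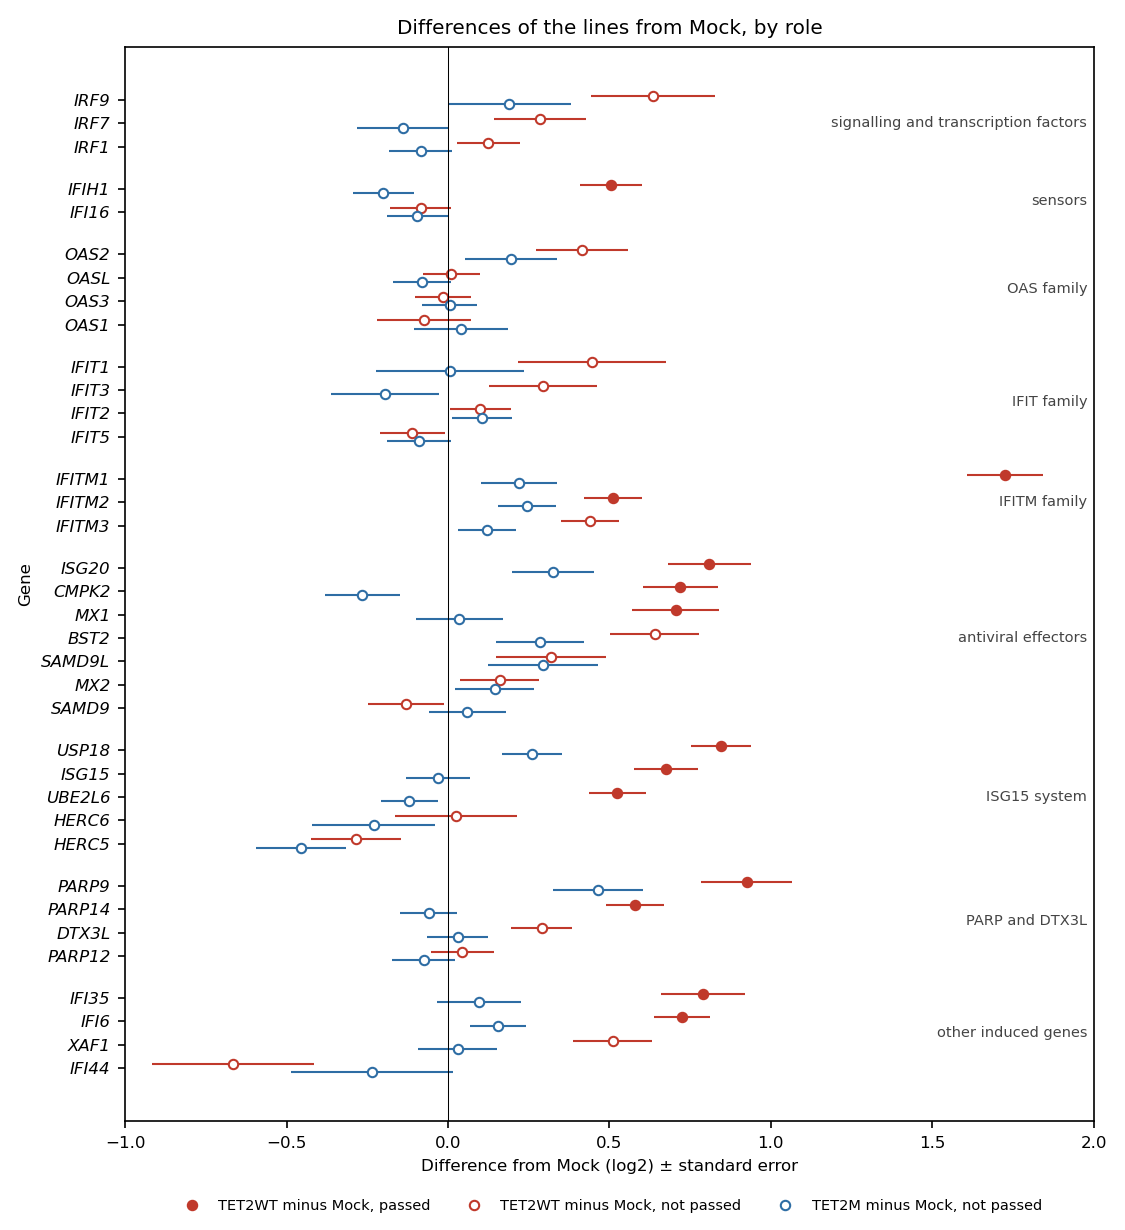
Fitted differences from Mock (log2, horizontal axis) of the 36 tested interferon response genes, grouped by role, for TET2WT in red and TET2M in blue; bars are 1 standard error of the fit and filled points passed at an adjusted p under 0.05. The 13 filled points are all TET2WT and lie between 0.51 and 1.73, while the TET2M points lie between -0.46 and 0.47.

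The transcription factors of the pathway did not pass. IRF9, the DNA-binding part of ISGF3, read 4.06 and 4.53 in TET2WT, against 3.80 and 3.52 in Mock and 3.96 and 3.74 in TET2M, a difference of 0.64 ± 0.19 (limma adjusted p = 0.143). Both TET2WT arrays were above the other 4, but the gap to Mock was 0.26 at 4.5 g/L and 1.01 at 1 g/L. IRF7, the factor that amplifies interferon alpha genes, read 4.49 and 4.03, 4.09 and 3.86, and 3.79 and 3.88, a difference of 0.29 ± 0.14 (limma adjusted p = 0.332). IRF1, the early factor of the interferon gamma response, differed by 0.13 ± 0.10 (limma adjusted p = 0.541).

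The 5 members below the filter lay near the bottom of the scale in every line. TRIM22, a ubiquitin ligase that restricts viruses, lay between 2.01 and 2.13 on all arrays, IFI44L, the neighbour of IFI44, between 2.15 and 2.39, and IFI27, a strong responder to interferon alpha in blood, between 2.26 and 2.65. EPSTI1, a gene first described in breast epithelium beside stroma, lay between 1.92 and 2.38. RSAD2 (viperin), which makes a chain-terminating nucleotide, read 2.64 and 2.55 in TET2WT, against 2.43 and 2.56 in Mock and 2.29 and 2.49 in TET2M. RSAD2 lies back to back with CMPK2, and 1 of the 3 windows of CMPK2 and 1 of the 2 of RSAD2 contain the same ISRE core at chr2:6865806-6865814, while only CMPK2 was above the filter. PARP9 and DTX3L likewise share 1 core at chr3:122564332-122564340, with differences of 0.93, which passed, and 0.29, which did not; whether these differ was not tested.

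The second comparison, TET2WT with TET2M, sets the 2 over-expressed forms of TET2 side by side. Here 8 of 36 members were higher in TET2WT and none was lower, against 1.86% of all genes higher and 1.43% lower. At an unadjusted p under 0.05, limma gave 19 members higher and 0 lower, against 9.52% and 8.13% of all genes. XAF1, which passed the filter through TET2WT, is among the 19. The 8 genes were IFITM1, CMPK2, IFIH1, ISG15, UBE2L6, PARP14, USP18 and IFI6. IFITM1 was higher than in TET2M by 1.51 ± 0.12 (2.84-fold, limma adjusted p = 0.00340) and CMPK2 by 0.99 ± 0.12 (1.98-fold, limma adjusted p = 0.0132). IFIH1 and ISG15 were each higher by 0.71, UBE2L6 by 0.65, PARP14 by 0.64, USP18 by 0.59 and IFI6 by 0.57 (limma adjusted p from 0.0197 to 0.0333). IFI35 (0.70 ± 0.13, limma adjusted p = 0.0525) and MX1 (0.67 ± 0.14, limma adjusted p = 0.0635) fell just outside the threshold. PARP9, ISG20 and IFITM2 differed by 0.46, 0.49 and 0.27 and did not pass (limma adjusted p from 0.125 to 0.210). The median over the 36 members was 0.34, beside 0.00 over all genes. As in the first comparison, which shares the TET2WT arrays, no member passed with any 1 array left out.

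The third comparison, TET2M with Mock, gave no call among the members. Over all genes tested, 0.0277% were called higher and 0.0693% lower. At an unadjusted p under 0.05, limma had 4 members higher and 1 lower, against 3.34% and 6.17% of all genes. The largest differences were PARP9 at 0.47 ± 0.14 (95% interval 0.12 to 0.81, limma adjusted p = 0.416) and HERC5 at -0.46 ± 0.14 (interval -0.79 to -0.12, limma adjusted p = 0.417). IFITM1 differed by 0.22, with an interval from -0.07 to 0.51, ISG15 by -0.03 (-0.27 to 0.21) and MX1 by 0.04 (-0.30 to 0.37). ISG20 differed by 0.33 (0.01 to 0.64), USP18 by 0.26 (0.03 to 0.49) and IFITM2 by 0.25 (0.02 to 0.47). The intervals of ISG20, USP18, IFITM2 and PARP9 lay above 0 before adjustment, so the missed threshold does not show that TET2M and Mock were alike. The median over the 36 members was 0.03, beside -0.02 over all genes.

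Counted without a model, both TET2WT arrays were above the other 4 arrays for 18 of the 36 members, against 12% of all genes. These were the 13 genes that passed against Mock with the exception of ISG20, together with IFIT3, IFITM3, IRF9, DTX3L, BST2 and XAF1, the last of which passed the filter through TET2WT. Both TET2WT arrays were above both Mock arrays for 22 members and below for 4, against 19.7% and 23.8% of all genes. Both were above TET2M for 22 and below for 1, against 21.2% and 19.9%. OAS2 and XAF1, which passed the filter through TET2WT, are among the 22 above Mock, and XAF1 is among the 22 above TET2M. For TET2M against Mock the counts were 7 above and 3 below, against 12.8% and 20.2%.

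The difference from Mock was also read separately at each concentration, with 1 array a side and no test. At 4.5 g/L, 27 of 36 members were higher in TET2WT than in Mock (median 0.32), and at 1 g/L 27 were (median 0.41). At both concentrations 24 members (66.7%) were higher and 5 were lower, against 27.6% and 33.1% of all genes. Among these 24 are OAS2 and XAF1, which passed the filter through TET2WT. For TET2M against Mock the same counts were 12 (33.3%) higher and 10 lower, against 24.2% and 33.9%. Across the 36 members the differences at the 2 concentrations had a Pearson correlation of 0.70 for TET2WT and 0.21 for TET2M, and across all genes 0.63 and 0.41; these points share the lines and the platform, and genes are not replicates.

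**Figure D3:**
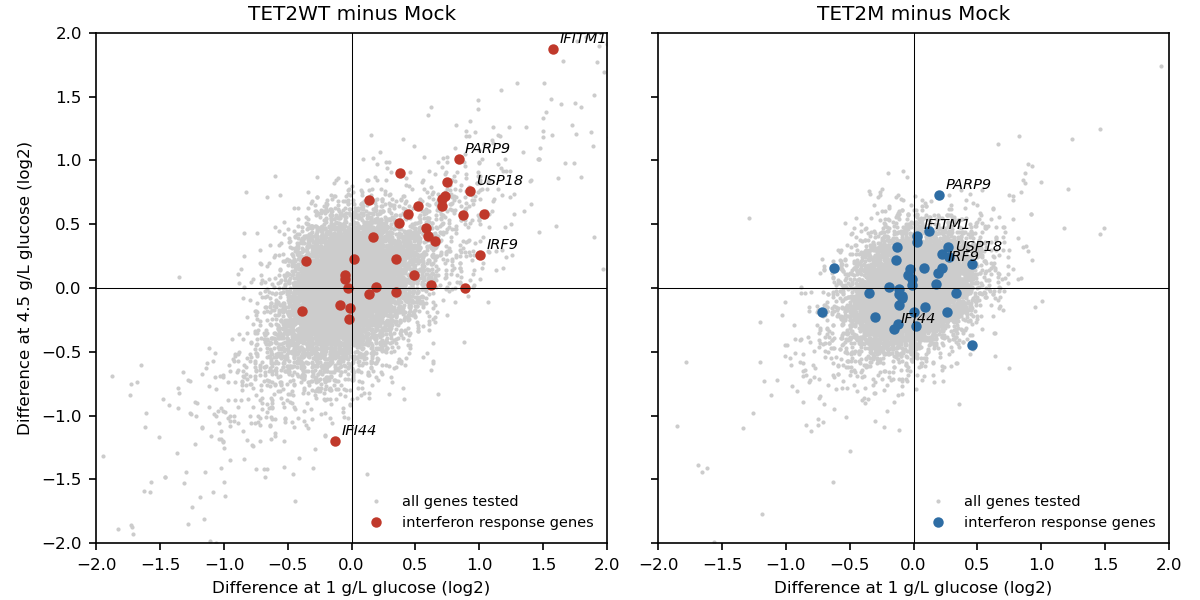
Differences from Mock (log2) at 1 g/L glucose on the horizontal and at 4.5 g/L on the vertical axis, for TET2WT on the left and TET2M on the right, with the interferon response genes in colour and all genes tested in grey (46 and 11 genes lie outside the axes). On the left 24 of the 36 members lie above 0 on both axes, with IFITM1 farthest out, and on the right 12 do.

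Glucose moved none of the members past the threshold, and 1 of all genes tested passed (0.00693%). At an unadjusted p under 0.05, limma gave 4 members higher and 4 lower at 4.5 g/L, against 7.18% and 8.19% of all genes, so these shares are not far from the background. OAS1 had the highest difference, 0.51 ± 0.12 at 4.5 over 1 g/L (limma adjusted p = 0.181), with values of 4.28 and 3.51 in TET2WT, against 4.07 and 3.87 in Mock and 4.29 and 3.73 in TET2M. All 3 lines read higher for it at 4.5 g/L. CMPK2 differed by 0.33 ± 0.10, IFIT1 by 0.32 ± 0.19 and IFIT5 by 0.30 ± 0.08, none of which passed (limma adjusted p from 0.206 to 0.460). On the other side were IFIH1 at -0.39 ± 0.08 (limma adjusted p = 0.158), ISG20 at -0.38 ± 0.10 (limma adjusted p = 0.209) and IFITM2 at -0.26 ± 0.07 (limma adjusted p = 0.221), each lower at 4.5 g/L in all 3 lines. Counted over the members, 6 (16.7%) were higher and 9 (25.0%) lower at 4.5 g/L in all 3 lines, against 16.7% and 20.7% of all genes. With an intensity trend in the variance prior, 3 members passed, IFIT5 higher and IFITM3 and ISG20 lower at 4.5 g/L, among 573 of all genes.

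The glucose response of TET2WT was set against that of the other 2 lines. No member passed, nor did any other gene (0%). At an unadjusted p under 0.05, limma gave 3 members with a lower response in TET2WT and none with a higher one, against 4.12% and 5.06% of all genes. The farthest were IFI44 at -0.99, IRF9 at -0.72 and SAMD9L at -0.63. The line difference and its dependence on glucose rest on the same 6 arrays, and the fit kept 1 residual degree of freedom.

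**Figure D4:**
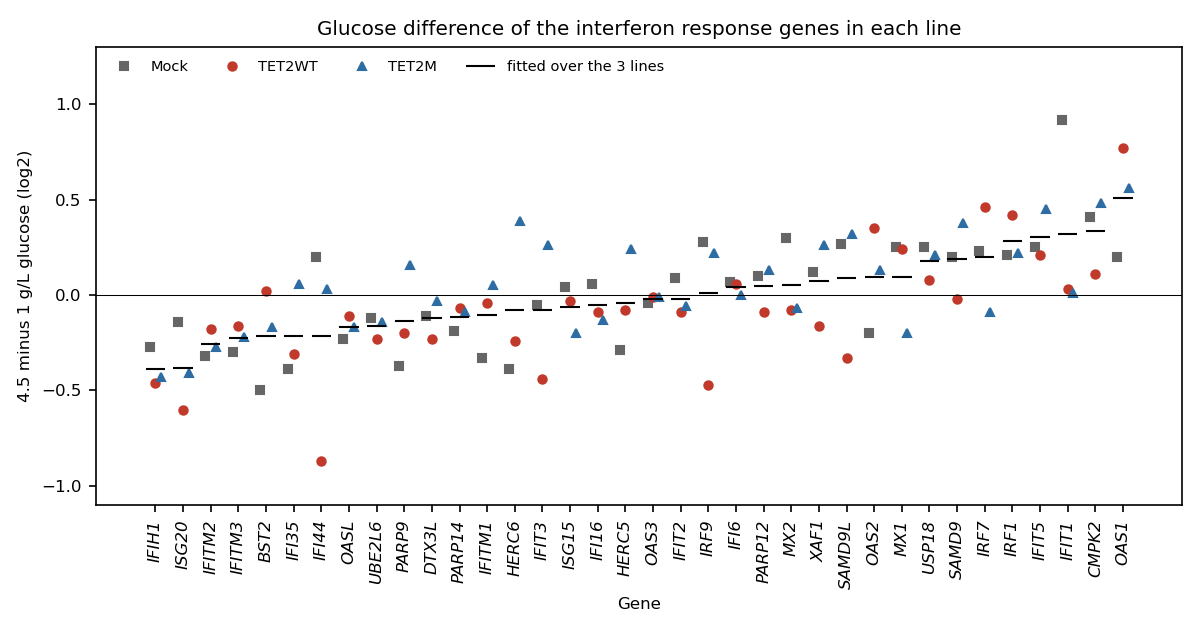
Difference between 4.5 and 1 g/L glucose (log2, vertical axis) of the 36 tested interferon response genes in Mock (grey squares), TET2WT (red circles) and TET2M (blue triangles), with the difference fitted over the 3 lines as a black bar. Genes are ordered by the fitted difference, from IFIH1 at -0.39 to OAS1 at 0.51, and none passed the threshold.

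Genes of the pathway outside the 42 were counted by lists. Of 10 interferon ligand genes with a probe set, only IFNL1 (2.49 to 2.87) had a mean above the filter, and IFNB1, the first type I interferon made by most cells, reached at most 2.45. The 9 receptor and Janus kinase genes were all tested and gave no call between TET2WT and Mock. Of these, 2 were higher and none lower at an unadjusted p under 0.05 in limma, beside 8.78% and 11.4% of all genes. IFNAR1 lay between 5.21 and 5.62, IFNAR2 between 6.06 and 6.38, JAK1 between 8.40 and 8.70 and TYK2 between 7.16 and 7.35. Of 11 tested STATs, IRFs and inhibitors, 1 was lower in TET2WT and none higher, beside 2.2% and 2.01% of all genes. This gene was SOCS3, a feedback inhibitor of cytokine receptors. It read 4.13 and 4.36 in TET2WT, against 4.97 and 5.11 in Mock and 4.11 and 4.37 in TET2M. It fell by 0.80 ± 0.09 in TET2WT (limma adjusted p = 0.0105), and in TET2M the difference of -0.80 ± 0.09 did not pass (limma adjusted p = 0.0697). None of 14 tested genes of nucleic acid sensing was called. Before adjustment, limma gave 2 higher and 3 lower at a p under 0.05, beside 8.78% and 11.4% of all genes. The RNA sensor RIGI differed by -0.28 ± 0.11 (limma adjusted p = 0.243).

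Among 36 further interferon-induced genes, 3 rose in TET2WT over Mock and none fell, beside 2.01% and 2.2% of all genes. With limma, 7 of them were higher and 2 lower at an unadjusted p under 0.05, beside 8.78% and 11.4% of all genes. RTP4, a receptor transporter protein, read 3.93 and 4.43 in TET2WT, against 2.82 and 2.54 in Mock and 3.02 and 2.95 in TET2M, a rise of 1.50 ± 0.19 (limma adjusted p = 0.0142). APOL1, a serum and cytoplasmic apolipoprotein, rose by 0.68 ± 0.11 (limma adjusted p = 0.0339) and the membrane protein LY6E by 0.57 ± 0.09 (limma adjusted p = 0.0317). Of 12 tested genes known mainly for induction by interferon gamma, SECTM1 rose by 1.36 ± 0.22 (limma adjusted p = 0.0309). The chemokine gene CXCL10 read 2.58 and 2.52 in TET2WT, against 3.46 and 3.43 in Mock and 2.39 and 2.68 in TET2M, and was called lower in TET2WT, at -0.90 ± 0.12 (limma adjusted p = 0.0167). It passed the filter through the Mock arrays, and both TET2WT arrays were below the level of 2.64, so the size of its fall is not measured. In TET2M its difference of -0.91 ± 0.12 did not pass (limma adjusted p = 0.102). Over all 83 tested genes of these lists, 4 rose and 2 fell in TET2WT, beside 2.01% and 2.2% of all genes. Their median was 0.07, beside -0.01 over all genes. With limma, 15 of the 83 were higher and 9 lower at an unadjusted p under 0.05, beside 8.78% and 11.4% of all genes.

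The genes that rose were spread over the genome. The 13 lie at 11 loci on 8 chromosomes, with IFITM1 beside IFITM2 and PARP9 close to PARP14, across DTX3L, as the pairs. Of the 42 members, 23 fall in 9 clusters of neighbours, and the clusters of IFIT genes and OAS genes held no call. In promoter sequence, 9 of the 11 risen members in the table (81.8%) and 12 of the 18 that did not pass (66.7%) held an ISRE core. UBE2L6 and IFI35 rose without an ISRE core in their windows, although IFI35 held a GAS motif. OAS3, with 2 cores, and IFIT3, with 2 in its first window and 3 in its second, did not pass. The median number of CpG dinucleotides in the first window was 12 in the risen members, 7 in those that did not pass and 25 over all tested genes in the table. First means listed first, and some members have several windows. The windows of CMPK2 held 2, 41 and 38, and those of PARP9 held 6 and 29, the latter in the printed window. For MX1 they held 20, 30 and 6, and for UBE2L6 32 and 41. The median of the risen members thus depends on the window taken.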

How the data were processed

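Per the labels, total RNA of each culture was labelled with biotin and hybridised to 1 Affymetrix array. The authors deposited a table of log2 values, and the submitters' processing notes name Affymetrix Expression Console as the tool. The base of the log was inferred from the values, which ran from 1.56 to 13.78. The normalization is not given in the sources used here, and the 6 columns were not normalized again. Of 54675 probe sets, 41097 were annotated to 1 gene, 1801 to several and 11777 to none; the annotation is GEO's for the platform, with symbols updated through gene IDs from RefSeq. Probe sets naming several genes were left out, as were control probe sets. For each gene the probe set of highest mean was used, and genes with a mean under 2.64 were not tested. Each main test compared 1 probe set across arrays. Levels of different probe sets were set together in the choice of probe set, the marker sums, the remarks on brightness and the mean of a gene's probe sets.

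limma 3.58.1 in R 4.3.3 (lmFit, eBayes) was fitted to all 6 arrays with terms for line and glucose (2 residual degrees of freedom). The variance prior taken from all genes tested had 3.97 degrees of freedom. P-values were adjusted by Benjamini-Hochberg over 14428 genes. A second fit added a glucose term for TET2WT alone. All tests were two-sided. The fit was tested on simulated data. All 42 members are named; the other pathway genes were counted by lists. The members, lists and motifs were chosen with earlier results of these data known. The alternatives were an intensity trend, quantile or cyclic loess normalization, no or a stricter filter, the mean of a gene's probe sets, only the lines compared, no second term, and each array left out. Array number, not read depth, sets the precision. STAT2 and some other listed genes were not analysed here.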

Additional observations from a re-analysis of the deposited data

How the results depend on the processing

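In the 6 alternatives that kept all arrays and both terms, 12 to 17 members were called between TET2WT and Mock, 8 to 12 between TET2WT and TET2M and none between TET2M and Mock; 12 of the 13 calls against Mock and all 8 against TET2M held in each of these that tested the gene, IFIH1 being the exception. The highest counts, 17 and 12, came from the intensity trend. That setting also called more of all genes tested, 1528 and 1249, where the main fit called 608 and 476. The rest of the 6 alternatives called 578 to 791 and 455 to 576 of all genes tested. With no glucose term 5 and 4 members were called, and with only the arrays of the 2 lines compared 0 in both. With any 1 array left out the counts were 0 to 0 in both. The median between TET2WT and Mock was 0.295 without the filter and 0.305 to 0.457 over the sets with 1 array left out; between TET2WT and TET2M it was 0.260 without the filter, 0.433 with the 60th percentile filter and 0.266 to 0.356 with 1 array left out. The TET2M median, near 0 throughout, was 0.004 with the mean of probe sets and -0.005 to 0.066 with 1 array left out. The glucose median was 0.007 on the arrays of TET2M and Mock alone and -0.028 to 0.008 with 1 array left out, and the intensity trend called 3 members for glucose. The fits with fewer arrays keep 1 residual degree of freedom. With only the arrays of TET2WT and Mock, 16 of all genes tested still passed. The cause of the zeros and of the other shifts was not tested. No called difference reversed.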
